A study of Mus musculus with 8 samples.

Results

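The genes described here give T cells their identity and carry the signal of the T cell receptor, and they were measured in Peyer's patches of mice gavaged with ovalbumin (OVA) or saline. A probe set was a member when the array annotation named exactly 1 of 30 listed genes of the T cell lineage, of T cell homing and of receptor signalling. The rule found 54 of the 45101 probe sets, for 28 of the 30 genes, out of 18193 genes that any probe set names alone. No probe set listed for this array named the kinase Lck or the transcription factor Tcf7 alone, so no intensity of these 2 genes is analysed here. Their promoter windows are counted in the sequence search below. Of the 54 probe sets, 42 passed the filter on dim signal, an intensity of about 11.9 on average over the arrays, and they covered 27 genes. The adaptor Trat1 had 2 probe sets, both under the filter, with a highest intensity of 5.58 on any array. For each of the 27 genes the brightest tested probe set is reported, and the other probe sets are described where they differ.

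The arrays came from inbred C3H/Hej mice, which respond poorly to bacterial lipopolysaccharide because their Tlr4 is mutated. Gavage began at 6 weeks of age and lasted 28 days, with OVA, an egg white protein, at 40 mg/kg per day or with normal saline as the vehicle. Saline had 1 female sample (control 7) and 1 male sample (control 8). OVA had 2 female samples (OVA 2 and 12) and 4 male samples (OVA 1, 5, 8 and 13), with 1 single-colour array for each numbered sample. Whether a sample pools patches or animals is not stated in the labels. The labels call the OVA mice allergic, and no readout of allergy was analysed here. Each sex has 1 control, so the spread between controls of 1 sex was not measured.

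T cells recognise antigen through a receptor whose antigen-binding chains carry no signalling tail of their own. The CD3 chains and the zeta chain supply it: the kinase Lck phosphorylates their tails, Zap70 binds there, and Zap70 in turn phosphorylates the adaptors Lat and Lcp2, on which the downstream enzymes assemble. In a Peyer's patch, a lymphoid organ of the gut wall, T cells lie mainly between and around the B cell follicles and help B cells toward IgA, and they enter from blood and leave by lymph under the control of homing receptors. A whole patch holds many cell types, so fewer T cells and less RNA per T cell cannot be told apart in any value below.

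The deposited values were linear intensities, and the trimmed mean of an array, without the lowest and highest few percent of values, lay between 65.1 and 68.2. Of 13 T cell markers, most of them members themselves, 9 had a probe set and all 9 passed the filter, which shows that T cell transcripts were measured and not how many T cells a patch held. Of 12 B cell markers with a probe set 12 passed, of 11 enterocyte and barrier markers 11, and of 9 macrophage and dendritic cell markers 8, with Itgam too dim. The thymocyte genes Rag1, Rag2, Ptcra and Dntt were all below the filter. The extraction text of the labels speaks of a patient's cortex, and of 7 neuron and glia markers with a probe set 2 passed, with Snap25, Gfap, Rbfox3, Syn1 and Tubb3 below the filter. Summed intensity of the 12 B cell markers was 3905 to 4455 in the controls and 4125 to 8535 in OVA mice, that of the 11 enterocyte and barrier markers 29950 to 30870 and 23680 to 31610, and that of the 8 macrophage and dendritic cell markers 4967 to 5508 and 5243 to 6895. The 5 germinal centre markers past the filter summed to 265 and 355 in the controls and to 409 to 1112 in OVA mice, with all 6 OVA arrays above both controls. The beta-actin 3′ to 5′ signal ratio, a measure of RNA integrity, was 1.43 and 1.54 in the controls and 1.58 in male OVA 8, and the other OVA arrays ranged from 1.29 to 1.37. The part that cell composition and RNA integrity play in the values below was not tested.

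Comparing OVA with saline asks whether transcripts of the patch change when a food protein is given daily by mouth. Most of the 27 genes lay on the higher side in OVA mice, by small amounts, and none passed the test. The difference, OVA minus control on the log2(intensity + 4.88) scale and adjusted for sex, was above 0 for 25 of 27 genes, where 53.7% of all 11988 tested genes were above 0. The median difference was 0.28 over the 27 genes and 0.02 over all genes. In limma no member and none of the 22518 probe sets had an adjusted p under 0.05 (members 0.4125 to 0.957), 2524 probe sets had an unadjusted p under 0.05, and 3 members (Cd247, Cd5 and Lef1) had an unadjusted p under 0.05 on the higher side, against 6.39% of all genes. That is 11.1% of the members, and 0 members stood on the lower side at that level, against 3.82%. The 2 controls were the lowest arrays for 2 members, Cd247 and Lef1, or 7.41%, near the 7.99% of all genes, and the highest for 0 (4.65%). With fewer arrays the share over all genes grows too. Without female control 7 every OVA array was above the control left for 11 members (40.7%; all genes 17.8%), and without male OVA 13 for 8 (29.6%; all genes 12.8%). Without male control 8 it was 4 (14.8%; all genes 20.7%), and without female OVA 2 also 4 (all genes 10.3%). Without female OVA 12 and male OVA 8 together the median difference was 0.12 over the members and 0.005 over all genes, with 21 of 27 members above 0. These 2 arrays are the highest for most members, so leaving them out lowers the members' difference in any case.

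**Figure D1:**
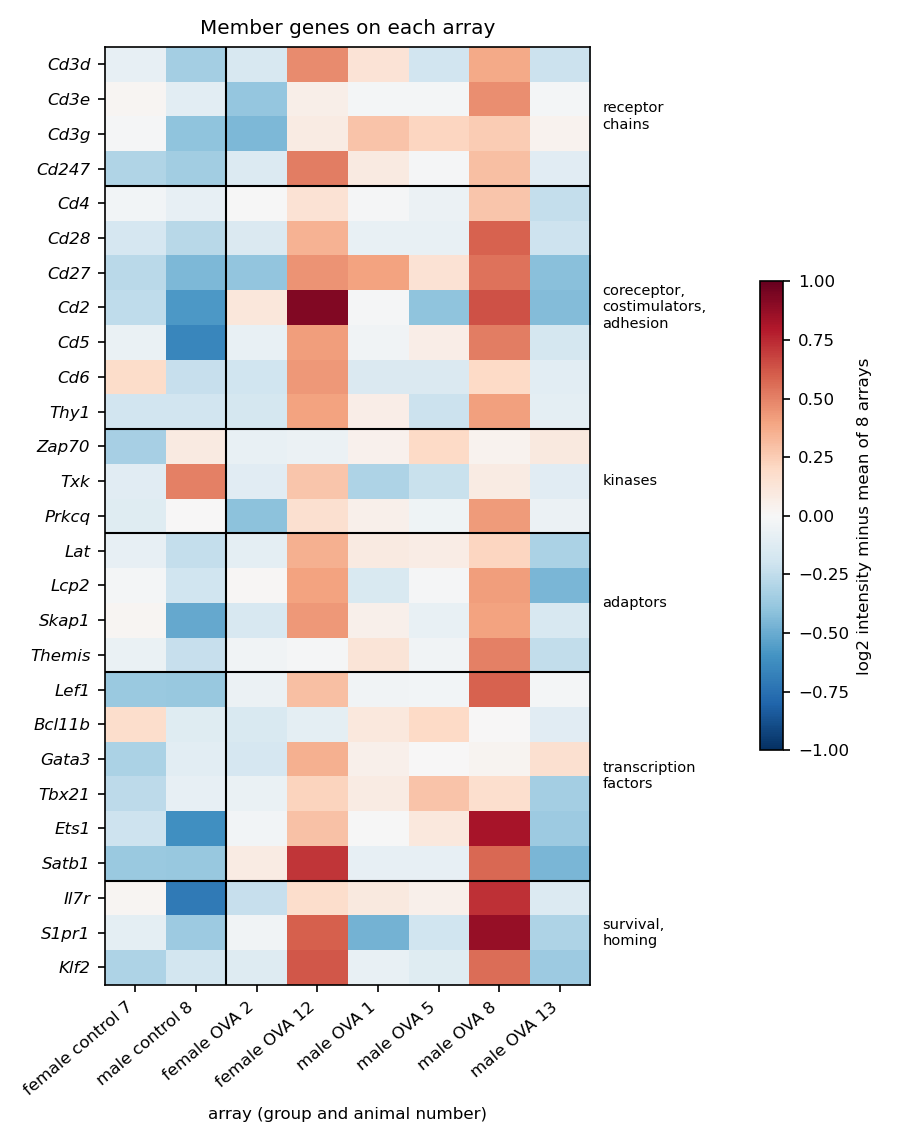
Each row is a member gene, ordered by role, and each column an array; colour is the log2 intensity minus the gene's mean over the 8 arrays, from blue (lower) to red (higher), and the vertical line divides the 2 controls from the 6 OVA arrays. By brightest probe set, female OVA 12 and male OVA 8 are the 2 highest arrays for 20 of the 27 genes, while Zap70, Txk and Bcl11b show other patterns.

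The OVA differences of the 4 receptor chains ran from 0.03 to 0.45, and whether the chains differ from each other was not tested. Cd3d, Cd3e and Cd3g encode the CD3 delta, epsilon and gamma chains, and Cd247 encodes the zeta chain. The 3 CD3 genes share a stretch of mouse chromosome 9, where Cd3d and Cd3g are read in opposite directions from starts 1355 bases apart and Cd3e starts 27825 bases from Cd3d. Cd247 is on chromosome 1. The 250 bases before each start, from RefSeq (GRCm38.p6), are printed 5′ to 3′ on the strand of the gene because these 4 genes feed 1 complex. The window of Cd5 is added as the other member with an unadjusted p under 0.05 and a single listed start. Capitals mark AGGAAG or its reverse complement CTTCCT, a core bound by ETS factors such as Ets1.
Cd3d, GRCm38.p6 chr9:44981536-44981785, plus strand: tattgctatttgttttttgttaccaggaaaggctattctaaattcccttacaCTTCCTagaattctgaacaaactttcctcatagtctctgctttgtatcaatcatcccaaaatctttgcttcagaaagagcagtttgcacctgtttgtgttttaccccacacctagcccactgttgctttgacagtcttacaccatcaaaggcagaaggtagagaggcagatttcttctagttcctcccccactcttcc
Cd3e, GRCm38.p6 chr9:45009612-45009861, minus strand: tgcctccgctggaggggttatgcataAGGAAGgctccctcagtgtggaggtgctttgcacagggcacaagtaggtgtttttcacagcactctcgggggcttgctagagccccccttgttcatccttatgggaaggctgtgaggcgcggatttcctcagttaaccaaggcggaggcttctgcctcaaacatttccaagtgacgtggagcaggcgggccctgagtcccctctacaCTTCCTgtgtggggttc
Cd3g, GRCm38.p6 chr9:44980432-44980681, minus strand: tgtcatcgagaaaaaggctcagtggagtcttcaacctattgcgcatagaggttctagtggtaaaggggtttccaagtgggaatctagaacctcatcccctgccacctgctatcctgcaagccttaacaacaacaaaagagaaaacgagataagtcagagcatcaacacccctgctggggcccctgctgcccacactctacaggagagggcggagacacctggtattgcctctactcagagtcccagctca
Cd247, GRCm38.p6 chr1:165788431-165788680, plus strand: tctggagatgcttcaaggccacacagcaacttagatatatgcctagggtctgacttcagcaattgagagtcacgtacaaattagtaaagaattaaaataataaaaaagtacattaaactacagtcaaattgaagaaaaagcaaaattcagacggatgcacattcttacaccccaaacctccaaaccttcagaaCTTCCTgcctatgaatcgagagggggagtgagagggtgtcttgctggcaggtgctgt
Cd5, GRCm38.p6 chr19:10738975-10739224, minus strand: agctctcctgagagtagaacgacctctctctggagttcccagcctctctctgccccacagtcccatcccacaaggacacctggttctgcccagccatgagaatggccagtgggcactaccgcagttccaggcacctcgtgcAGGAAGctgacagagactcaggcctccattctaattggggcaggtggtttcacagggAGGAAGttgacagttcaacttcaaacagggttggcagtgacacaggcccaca
The ETS core was present in the windows of Cd3d, Cd3e, Cd247 and Cd5 and not in these letters for Cd3g. It was found in 16 of 35 windows of the 22 listed genes in the table (45.7%), against 29.5% of all 32851 windows of the same length. Other cores searched on both strands were CTTTGN (TCF and LEF; 57.1% of member windows against 48.4%), CCACCC (KLF; 48.6% against 28.1%), NGATAA (GATA; 17.1% against 22.5%) and TGTGGT (RUNX; 11.4% against 14.0%), and Cd3d held CTTTGN at 4 places. Several windows belong to 1 gene, and some windows of Lef1, Themis and Satb1 overlap, so that the same CTTTGN or CCACCC site is counted more than once. Overlaps between cores were not removed, and a match describes letters, not binding.

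By the brightest probe set, Cd247 was the 1 chain of the 4 whose groups did not overlap. Its intensity was 49.8 in female control 7 and 48.2 in male control 8, 56.4 and 91.05 in female OVA 2 and 12, and 67.0, 62.1, 78.1 and 57.5 in male OVA 1, 5, 8 and 13. All 6 OVA arrays lay above both controls, which themselves differed little, and the log2 difference was 0.45 ± 0.18 (SE) (limma adjusted p = 0.421). A second, dimmer Cd247 probe set overlapped between the groups. It was 43.55 in female control 7 and 31.2 in male control 8 and ran from 41.0 to 72.0 in OVA mice (difference 0.41 ± 0.175 (SE)). Cd3d was 240.5 in female control 7 and 201 in male control 8, 227.5 and 355 in female OVA 2 and 12, and 281, 223, 332.5 and 219 in male OVA 1, 5, 8 and 13. Female OVA 12 and male OVA 8 stood out and 3 OVA arrays lay between the controls, with a difference of 0.31 ± 0.21 (SE) (limma adjusted p = 0.566) that was 0.195 without female OVA 12. Cd3e was 80.1 in female control 7 and 72.8 in male control 8, 58.98 and 82.4 in female OVA 2 and 12, and 77.9, 77.9, 111 and 77.9 in male OVA 1, 5, 8 and 13. Male OVA 8 was the high array and female OVA 2 the low one, the other 3 male OVA arrays held the same deposited value, and the difference was 0.03 ± 0.18 (SE) (95% interval -0.39 to 0.45; limma adjusted p = 0.957). The sign for Cd3e was negative without female OVA 12 (-0.03), male OVA 8 (-0.04) or male control 8 (-0.19). Cd3g was 194 in female control 7 and 146 in male control 8, 141 and 206 in female OVA 2 and 12, and 238.5, 227, 233 and 199.7 in male OVA 1, 5, 8 and 13, so that 5 of 6 OVA arrays exceeded both controls and female OVA 2 was the lowest of all. Its difference was 0.25 ± 0.20 (SE) (limma adjusted p = 0.626), and it was -0.18 without male control 8.

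The coreceptor, the costimulators and the adhesion molecules at the T cell surface were all on the higher side, 7 of 7, with a median difference of 0.31. Cd2, an adhesion molecule that binds CD48 in mice, had the largest estimate of the 27 genes. Its intensity was 148 in female control 7 and 118 in male control 8, 193 and 342 in female OVA 2 and 12, and 177, 133, 279 and 131 in male OVA 1, 5, 8 and 13. The groups overlapped through male OVA 5 and 13, and the difference was 0.64 ± 0.31 (SE) (limma adjusted p = 0.472). Cd5, a negative regulator of receptor signalling that is also carried by B-1 cells, was 37.2 in female control 7 and 23.3 in male control 8, 37.05 and 54.2 in female OVA 2 and 12, and 38.3, 41.3, 57.9 and 34.25 in male OVA 1, 5, 8 and 13. Male control 8 was the low array, the female control stood level with female OVA 2, and the difference was 0.51 ± 0.21 (SE) (limma adjusted p = 0.426, unadjusted p = 0.0391). Without male control 8 the Cd5 difference was 0.24.

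Cd28, the receptor for CD80 and CD86 that gives the second signal, was 75.6 in female control 7 and 69.95 in male control 8, 77.2 and 111 in female OVA 2 and 12, and 81.3, 81.3, 132 and 73.65 in male OVA 1, 5, 8 and 13. Only female OVA 12 and male OVA 8 stood well apart, and the difference was 0.31 ± 0.22 (SE) (limma adjusted p = 0.585). A second, dimmer Cd28 probe set ran from 27.02 to 29.95 in the controls and from 34.5 to 61.5 in OVA mice without overlap, with a difference of 0.57 ± 0.22 (SE) and the same 2 arrays highest. Cd27, the receptor for CD70, was 21.4 and 25.01 in the controls and from 21.97 to 47.4 in OVA mice, with a median of 38.7, and 4 OVA arrays lay above both controls. Its difference was 0.47 ± 0.285 (SE), and 0.29 without male control 8. Cd4, the coreceptor for MHC class II, was 45.4 and 47.3 in the controls and from 40.2 to 59.4 in OVA mice, with a median of 48.1. Its difference of 0.08 ± 0.14 (SE) was small beside those of Cd2 and Cd5, and it was -0.002 without female OVA 12 and male OVA 8 together. Thy1, a surface glycoprotein used to mark mouse T cells, had 1 deposited value, 59.8, in both controls and ran from 58.9 to 93.3 in OVA mice (difference 0.27 ± 0.195 (SE), and 0.15 without female OVA 12). Cd6, a relative of Cd5 that binds CD166, was 33.5 and 46.25 in the controls and from 34.3 to 55.7 in OVA mice, with a median of 36.3. The female control was among the higher arrays, and the difference of 0.065 ± 0.18 (SE) was -0.07 without male control 8 and -0.04 without female OVA 12.

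The 3 measured kinases had the lowest median difference of the 6 roles, 0.05. Zap70, the kinase that docks on the phosphorylated chains, was 68.2 in female control 7 and 92.8 in male control 8, 82.2 and 83.45 in female OVA 2 and 12, and 89.7, 100.4, 89.4 and 93.5 in male OVA 1, 5, 8 and 13. Female control 7 was the low array, the others lay close together, and the difference was 0.12 ± 0.10 (SE), and 0.006 without female control 7. The spread of this Zap70 probe set over the 6 OVA arrays, an SD of 0.10 on the log2 scale, was the smallest among the members' brightest probe sets. Its other 2 probe sets had differences of 0.10 and 0.04. Txk, a kinase of the Tec family, was dim and highest in male control 8, at 15.7 in female control 7 and 26.8 in male control 8, 15.7 and 22.1 in female OVA 2 and 12, and 13.2, 14.25, 18.8 and 15.7 in male OVA 1, 5, 8 and 13. Its difference was -0.26 ± 0.20 (SE) (limma adjusted p = 0.612), and without male control 8 it was 0.20. Prkcq, the protein kinase C theta that links the receptor to NF-kappa-B, was 61.8 and 67.9 in the controls and from 49.9 to 92.6 in OVA mice, with a median of 67.96. The groups overlapped widely, the difference was 0.05 ± 0.18 (SE), and it was -0.05 without female OVA 12 and -0.01 without male OVA 8.

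The 4 measured adaptors were on the higher side, with a median difference of 0.21. Lat, the membrane scaffold phosphorylated by Zap70, was 93.3 in female control 7 and 83.1 in male control 8, 91.9 and 128 in female OVA 2 and 12, and 105, 104, 115 and 78.3 in male OVA 1, 5, 8 and 13. Female OVA 12 and male OVA 8 were highest and male OVA 13 lowest, with a difference of 0.23 ± 0.17 (SE) (limma adjusted p = 0.5925) that was 0.15 without female OVA 12. Skap1, which couples the receptor to integrin adhesion, was 49.65 in female control 7 and 32.9 in male control 8, 43.4 and 68.05 in female OVA 2 and 12, and 50.9, 46.2, 66.5 and 43.4 in male OVA 1, 5, 8 and 13. The low array was male control 8, while female control 7 lay above 3 OVA arrays, and the difference was 0.36 ± 0.20 (SE), or 0.12 without male control 8. Lcp2, the cytosolic partner of Lat also known as SLP-76 and present in myeloid cells too, was 128 and 146 in the controls and from 106 to 199.6 in OVA mice, with a median of 148 (difference 0.185 ± 0.21 (SE), and 0.10 without male OVA 8 or female OVA 12). Its second, dimmer probe set had the opposite sign, at -0.065. Themis, a regulator of receptor signal strength known from thymic selection, was 27.2 and 31.2 in the controls and from 26.8 to 48.5 in OVA mice, with a median of 32.1, with male OVA 8 highest (difference 0.19 ± 0.18 (SE), and 0.04 without male control 8).

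Among the transcription factors, Lef1, Ets1 and Satb1 had differences of 0.50 or more and Bcl11b was near 0. Lef1, a partner of beta-catenin that works with Tcf7 in T cells, had the smallest p of the 27 representative probe sets. It was 40.95 in female control 7 and 40.6 in male control 8, 52.1 and 68.01 in female OVA 2 and 12, and 53.1, 53.3, 84.5 and 53.5 in male OVA 1, 5, 8 and 13. All 6 OVA arrays exceeded both controls, which were nearly equal, with male OVA 8 and female OVA 12 well above the other 4 OVA arrays and a difference of 0.50 ± 0.19 (SE) (limma adjusted p = 0.4125, unadjusted p = 0.0263). A dimmer Lef1 probe set overlapped between the groups and had a difference of 0.22 ± 0.22 (SE).

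Ets1, an ETS family factor of T and B cells, was 288 in female control 7 and 217 in male control 8, 328 and 411 in female OVA 2 and 12, and 332.5, 361, 594 and 258 in male OVA 1, 5, 8 and 13. Male OVA 8 was far the highest and male OVA 13 lay between the controls, with a difference of 0.565 ± 0.27 (SE) (limma adjusted p = 0.473) that was 0.34 without male control 8. All 4 tested Ets1 probe sets had differences between 0.38 and 0.59, and 1 of them separated the groups fully, at 31.55 and 37.1 in the controls and 41.45 to 67.98 in OVA mice (difference 0.59 ± 0.175 (SE), unadjusted p = 0.00917, limma adjusted p = 0.3885). Satb1, a chromatin organiser that is abundant in T lineage cells, was 83.2 in female control 7 and 82.5 in male control 8, 116 and 182 in female OVA 2 and 12, and 102.5, 103, 165 and 78.1 in male OVA 1, 5, 8 and 13. The controls were level, female OVA 12 and male OVA 8 stood far above them, male OVA 13 was the lowest array, and the difference was 0.55 ± 0.27 (SE). Its other 2 tested probe sets had differences of 0.69 and 0.31, while a probe set below the filter ran the other way, from 12.1 to 17.3 in the controls and 8.97 to 12.02 in OVA mice.

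Bcl11b, required for commitment to the T lineage, was 256 in female control 7 and 207.5 in male control 8, 203 and 210.2 in female OVA 2 and 12, and 243, 259.8, 227 and 209 in male OVA 1, 5, 8 and 13. The groups overlapped throughout, the difference was -0.045 ± 0.13 (SE) (95% interval -0.35 to 0.26), and it was 0.17 without female control 7. The other 3 Bcl11b probe sets had differences of -0.08, -0.14 and 0.12. Gata3, the factor of type 2 helper cells, stayed near the filter, at 9.94 in female control 7 and 12.3 in male control 8, 11.6 and 18.7 in female OVA 2 and 12, and 14.25, 13.6, 13.9 and 15.7 in male OVA 1, 5, 8 and 13. Female OVA 12 was the high array and female OVA 2 lay between the controls, with a difference of 0.28 ± 0.14 (SE) that was 0.16 without female OVA 12. Tbx21, the factor of type 1 helper cells also called T-bet, was 18.8 and 22.01 in the controls and from 17.6 to 29.85 in OVA mice, with a median of 26.15, with a difference of 0.23 ± 0.17 (SE) that was 0.13 without female control 7. Neither of these 2 subset factors passed the test (limma adjusted p = 0.495 and 0.6065).

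**Figure D2:**
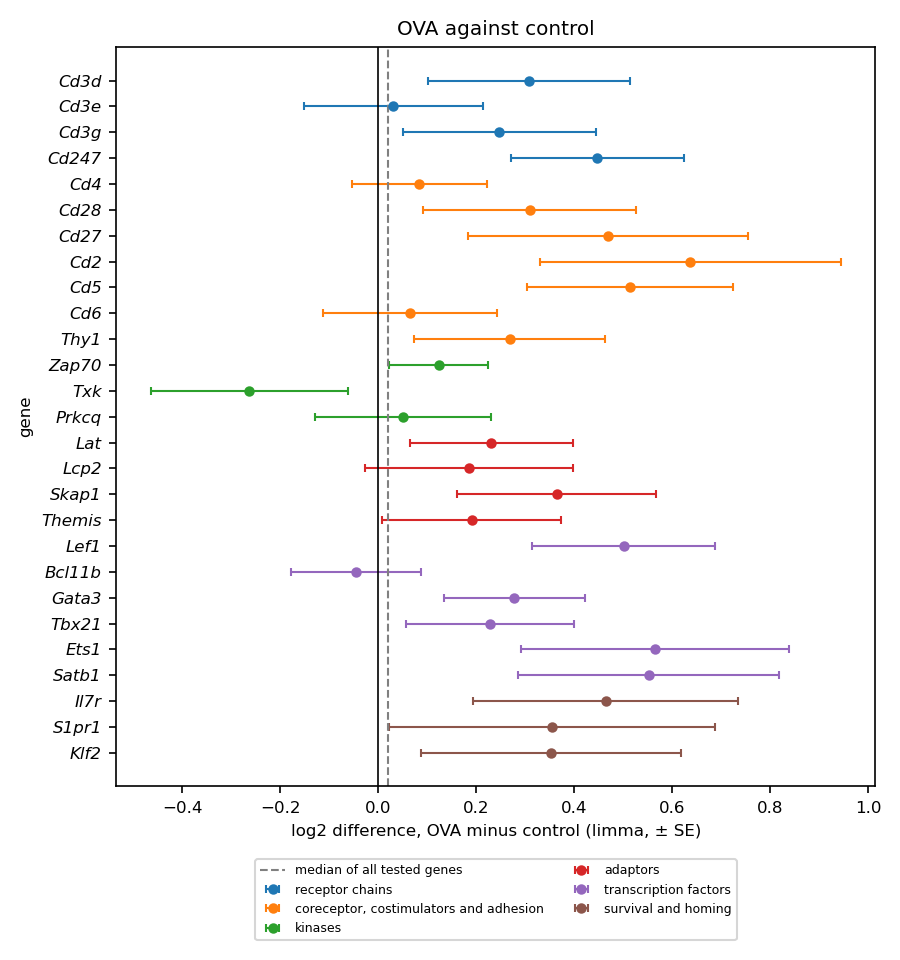
Points are the log2 difference, OVA minus control adjusted for sex, of each of the 27 member genes and bars are ± 1 SE from limma; colours give the role and the dashed line is the median of all tested genes. The largest estimate is that of Cd2 (0.64), and Txk and Bcl11b are the 2 genes left of 0.

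The survival and homing genes had the widest spread between OVA arrays. Il7r, the receptor chain that keeps naive and memory T cells alive, was 208 in female control 7 and 123.5 in male control 8, 174 and 231 in female OVA 2 and 12, and 219, 213, 342 and 186 in male OVA 1, 5, 8 and 13. Male control 8 was far the lowest, female control 7 lay within the OVA range, and the difference of 0.46 ± 0.27 (SE) was -0.05 without male control 8. A second, dimmer Il7r probe set was 99.8 in female control 7 and 74.5 in male control 8. It ran from 74.4 in female OVA 2 to 153.5 in male OVA 8, with a difference of 0.175 ± 0.25 (SE). S1pr1, the sphingosine 1-phosphate receptor that lets lymphocytes leave by lymph, was 69.1 in female control 7 and 56.6 in male control 8, 72.2 and 115 in female OVA 2 and 12, and 52.1, 63.99, 139.5 and 59.03 in male OVA 1, 5, 8 and 13. Female OVA 12 and male OVA 8 stood far above the other arrays, 3 male OVA arrays lay below the female control, and the difference was 0.35 ± 0.33 (SE), or 0.20 without male OVA 8. Klf2, which sustains S1pr1 and other homing genes in resting lymphocytes, was 117 in female control 7 and 128 in male control 8, 133 and 227 in female OVA 2 and 12, and 138.5, 134, 217 and 112 in male OVA 1, 5, 8 and 13. Female OVA 12 and male OVA 8 were again far the highest, with male OVA 13 the lowest array and a difference of 0.35 ± 0.265 (SE) (limma adjusted p = 0.605) that was 0.18 without female OVA 12.

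**Figure D3:**
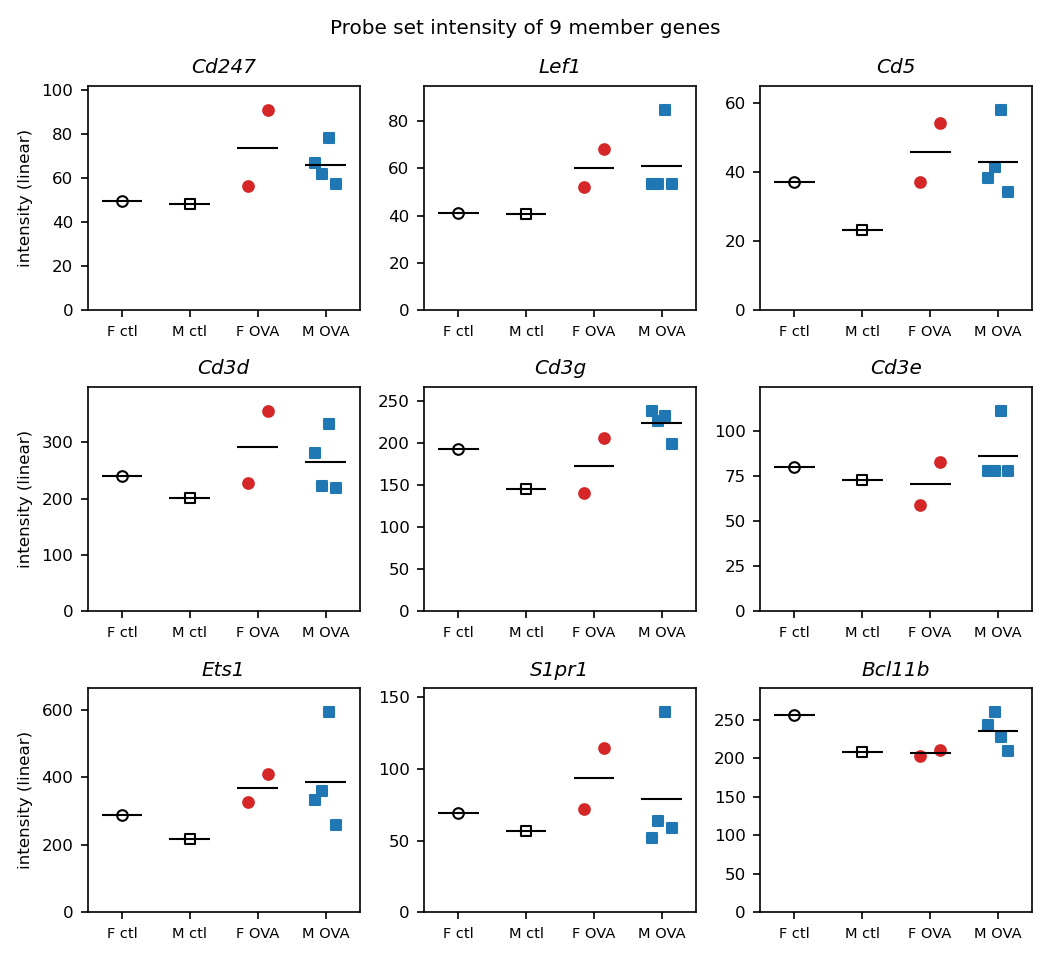
Each panel plots the linear probe set intensity of 1 gene, with 1 point per array, grouped as female control (F ctl), male control (M ctl), female OVA (F OVA) and male OVA (M OVA), and lines at group means. Cd247 and Lef1 have every OVA point above both controls, whereas S1pr1 is set apart by 1 high array in each sex. Ets1 has 1 far higher male OVA point, and Bcl11b overlaps throughout.

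The OVA arrays differed widely among themselves. The SD over the 6 OVA arrays had a median of 0.27 on the log2 scale over the 27 genes and 0.17 over all 11988 genes, and 25 of 27 members lay above the median of all genes. It was widest for Cd2 (0.55), S1pr1 (0.54) and Satb1 (0.44) and narrowest for Zap70 (0.10), Bcl11b (0.14) and Gata3 (0.17). The pseudocount narrows the log2 spread of a dim gene such as Gata3. Its highest OVA intensity was 1.62 times its lowest, near the median of 1.69 over the members. Without female OVA 12 and male OVA 8 together, the 2 highest arrays for most members, the median SD of the members was 0.16. Leaving out the highest arrays lowers a spread in any case, so this value is no test. Female OVA 12 was above both controls for 24 of 27 members, where 45.0% of all genes were, and male OVA 8 for 24, against 43.4%. Male OVA 1 was above both for 20 (74.1%, all genes 41.3%), male OVA 5 for 17 (63.0%, all genes 40.7%) and female OVA 2 for 13 (48.1%, all genes 32.1%). Male OVA 13 was above both controls for 6 (22.2%, all genes 34.7%) and below both for 7 (25.9%, all genes 27.9%). These 2 high arrays were the 2 highest of all 8 for 20 members, 74.1%, where the share of all genes was 20.7%. Male OVA 8 was the highest array for 13 members (48.1%, all genes 20.5%) and female OVA 12 for 9 (33.3%, all genes 21.6%). The lowest array was male control 8 for 11 members (40.7%, all genes 14.1%) and male OVA 13 for 7 (25.9%, all genes 11.2%). It was female OVA 2 for 4 (14.8%, all genes 13.2%), which were Cd3e, Cd3g, Prkcq and Bcl11b. By brightest probe set, the members that did not have these 2 arrays on top were Cd3g, Zap70, Txk, Themis, Bcl11b, Gata3 and Tbx21. A dimmer tested Zap70 probe set did have them on top.

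Marker lists of other cell types differed in how they ran beside the members. The mean log2 intensity of the 27 members, taken relative to its mean over the 8 arrays, was -0.13 in female control 7, -0.27 in male control 8, -0.14 and 0.33 in female OVA 2 and 12 and 0.01, -0.02, 0.41 and -0.19 in male OVA 1, 5, 8 and 13. The 12 B cell markers, in the same order, stood at -0.34, -0.385, -0.07, 0.60, 0.07, -0.19, 0.63 and -0.31. Enterocyte and barrier markers ran from -0.34 in male OVA 8 and -0.27 in female OVA 12 to 0.21 in male OVA 13. The germinal centre markers were highest in the same 2 arrays, at 1.05 in male OVA 8 and 0.47 in female OVA 12. The 2 arrays with the highest member levels were also highest for B cell markers and lowest for epithelial ones. Stromal and endothelial markers were highest in those 2 arrays as well, by less, at 0.30 in female OVA 12 and 0.14 in male OVA 8. So were macrophage and dendritic cell markers, at 0.133 in male OVA 8 and 0.094 in female OVA 12, with male OVA 1 close at 0.089. Some other lists ran differently from the members. The 4 natural killer and innate lymphoid markers stood at -0.53 in female OVA 2, -0.20 in female OVA 12 and -0.29 in male OVA 8, and at 0.31 in male OVA 1. The 4 mast cell markers ranged from -0.44 in male OVA 8 to 0.71 in male OVA 13, and the 7 plasma cell markers from -0.23 in female OVA 2 to 0.19 in male OVA 13. The 6 smooth muscle markers parted the 2 high arrays, at 0.33 in female OVA 12 and -0.24 in male OVA 8. Several members, Cd2, Cd5, Cd27, Ets1, Satb1, S1pr1 and Klf2 among them, are known to be transcribed in B cells or a subset of them as well. The part of cell composition in the members' values was not tested.

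**Figure D4:**
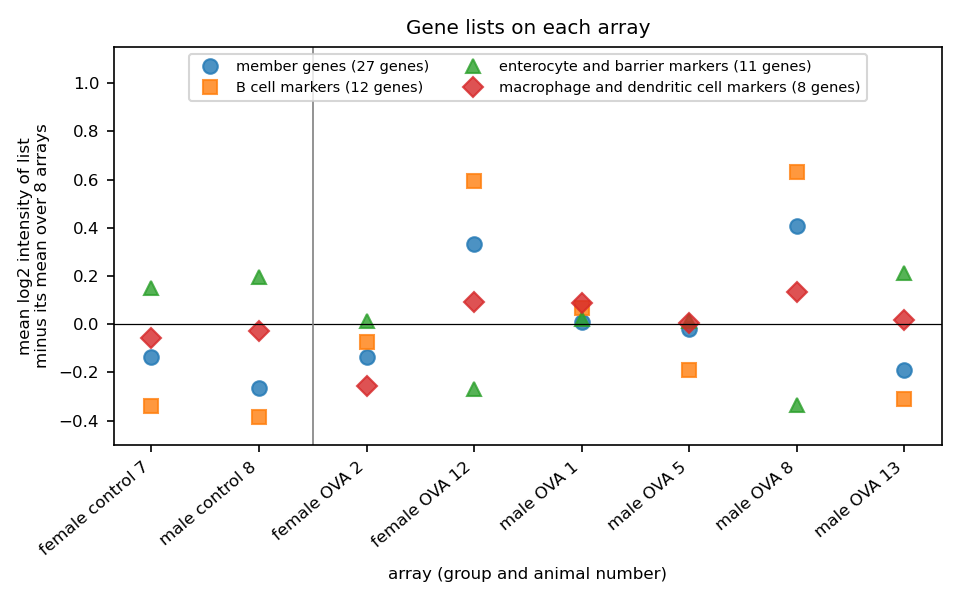
Each point is the mean log2 intensity of a gene list on 1 array minus that list's mean over the 8 arrays, for the member genes and for 3 marker lists; the vertical line divides controls from OVA arrays. Female OVA 12 and male OVA 8 are highest for the members (0.33 and 0.41) and for B cell markers (0.60 and 0.63) and lowest for enterocyte and barrier markers (-0.27 and -0.34).

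Within each sex the OVA difference rests on 1 control, so leaving out a control in the joint fit gives the difference of the other sex. It was above 0 for 22 of 27 members in females, where 56.2% of all genes were, and for 26 of 27 in males, against 51.3%. The median member difference was 0.24 in females and 0.32 in males, beside 0.04 and 0.007 over all genes. In females it was 0.03 without female OVA 12 and 0.49 without female OVA 2, and in males 0.18 without male OVA 8. No member and no probe set passed within either sex in limma, with 2472 probe sets in females and 2070 in males at an unadjusted p under 0.05; without male OVA 8, 1 probe set passed in males. At an unadjusted p under 0.05 there were 0 members in females (all genes 6.26% higher and 3.59% lower), and in males Cd3g, Cd5 and Il7r on the higher side (3.45% of all genes) and Txk on the lower (3.98%). The OVA difference of males minus that of females was above 0 for 15 of 27 members, against 44.3% of all genes, with a median of 0.04. That count was 8 without female OVA 2 and 23 without female OVA 12. The difference too passed for 0 of the 22518 probe sets in limma, with 1846 at an unadjusted p under 0.05. The 2 members among those were Cd3g, at 0.78 ± 0.31 (SE) in males minus females (unadjusted p = 0.0392, limma adjusted p = 0.587), where 2.91% of genes were called on that side, and Txk, at -0.84 ± 0.30 (SE) (unadjusted p = 0.0251, limma adjusted p = 0.556), against 4.18%. All 4 male OVA arrays exceeded male control 8 for Cd3g, while the 2 female OVA arrays lay on either side of female control 7. For Il7r the difference between the sexes was 0.94 ± 0.47 (SE) (limma adjusted p = 0.6475). The dimmer Il7r probe set had a smaller difference between the sexes, 0.61, and an OVA difference of 0.45 within males, against 0.89 in the brighter. Both female OVA arrays lay above the female control for 15 members (55.6%, all genes 42.5%), and all 4 male OVA arrays above the male control for 15 (55.6%, all genes 23.9%). The controls themselves were unequal, with female control 7 above male control 8 for 20 of 27 members, against 41.8% of all genes.

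**Figure D5:**
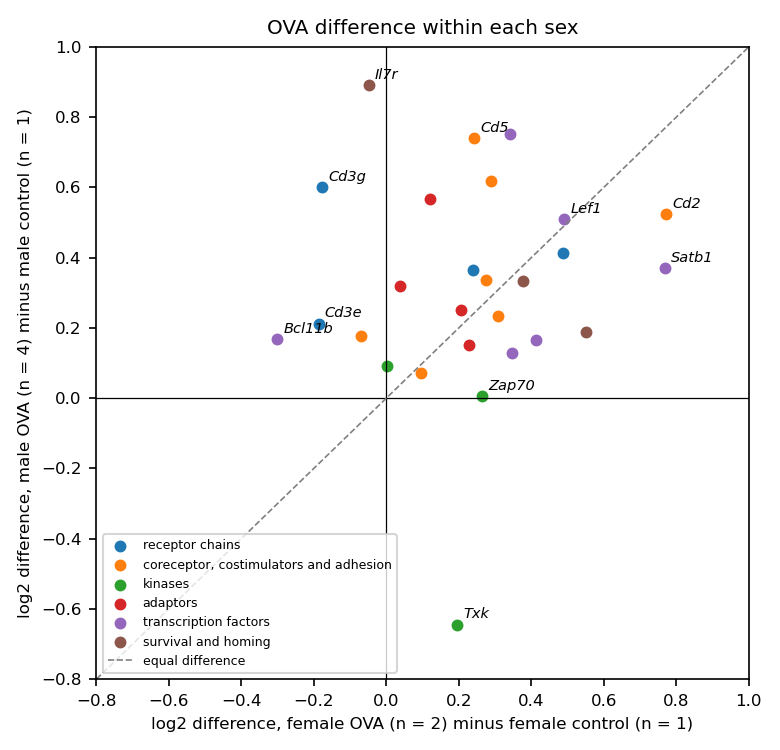
Each point is a member gene, with the log2 difference of female OVA minus female control on the x axis and that of male OVA minus male control on the y axis; the dashed line marks equal differences. Txk (0.20 and -0.65), Il7r (-0.05 and 0.89) and Cd3g (-0.18 and 0.60) lie farthest from the line, and each axis has 1 control array.

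Females and males, compared in the same fit with treatment as covariate, gave no member past the test in limma, while 12 of the 22518 probe sets (0.0533%) passed. Zap70 was the 1 member with an unadjusted p under 0.05, at -0.23 ± 0.09 (SE) in females minus males (unadjusted p = 0.0333, limma adjusted p = 0.901). On the lower side 4.16% of all genes were called. The other 2 tested Zap70 probe sets stood at -0.08 ± 0.14 (SE) and 0.03 ± 0.11 (SE).

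Other genes of receptor signalling lay mostly on the same side as the members. Of 39 listed, 33 were tested, 29 had a difference above 0 and the median was 0.30, with 0 past the test in limma. At an unadjusted p under 0.05, 6 of the 33 were on the higher side and 1 of the 33 on the lower. The shares of all genes were 6.39% and 3.82%. All OVA arrays were above both controls for 8 of the 33, where 7.99% of all genes were, and below both for 0 of the 33, where 4.65% were. The genes named from this list and the following lists were picked for the smallest unadjusted p in these same data. Cd8b1, the beta chain of the CD8 coreceptor, was 17.6 in female control 7 and 20.1 in male control 8, 26.95 and 31.7 in female OVA 2 and 12, and 31.6, 36.95, 31.2 and 29.2 in male OVA 1, 5, 8 and 13. Its OVA arrays were all above the controls (difference 0.58 ± 0.11 (SE), limma adjusted p = 0.303), while Cd8a, the alpha chain, named here after its values were seen, was at -0.02 ± 0.13 (SE). Malt1, the protease of the complex that activates NF-kappa-B, was 34.8 ± 3.28 (SD, n = 2) after saline, and after OVA it was 58.6 ± 11.5 (SD, n = 6), without overlap. Tespa1, a regulator of receptor signalling in thymocytes, had a difference of 0.63 ± 0.20 (SE), also without overlap. Dgka, a diacylglycerol kinase that dampens the signal, had a negative difference of -0.42 ± 0.12 (SE) (limma adjusted p = 0.3885), with male OVA 13 above the female control.

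Homing and egress genes, 18 tested of 22 listed, had a median difference of 0.28 with 15 above 0 and 0 past the test in limma. On the higher side at an unadjusted p under 0.05 were 6 of the 18, where 6.39% of all genes were. All OVA arrays were above both controls for 3 of the 18, where 7.99% of all genes were. Cd69, an activation marker that holds S1pr1 off the cell surface, was 21.9 in female control 7 and 12.9 in male control 8, 25.4 and 34.2 in female OVA 2 and 12, and 28.7, 25.4, 51.7 and 24.6 in male OVA 1, 5, 8 and 13. All OVA arrays were above both controls, with male OVA 8 highest and a difference of 0.72 ± 0.27 (SE) (limma adjusted p = 0.4125), which was 0.36 without male control 8. Cxcr4, the receptor for CXCL12, had a difference of 0.81 ± 0.315 (SE) without overlap. Foxo1, a factor upstream of Il7r and Klf2, stood at 0.46 ± 0.18 (SE), and Gpr183, an oxysterol receptor that positions lymphocytes, at 0.67 ± 0.26 (SE).

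Other transcription factors of T lineages, 25 tested of 27 listed, were more mixed, with 18 above 0, a median of 0.16 and 0 past the test in limma. At an unadjusted p under 0.05, 2 of the 25 were higher and 1 of the 25 lower. The shares of all genes were 6.39% and 3.82%. All OVA arrays were above both controls for 1 of the 25 and below both for 1 of the 25. The shares of all genes there were 7.99% and 4.65%. Myb, a factor of lymphoid progenitors and of intestinal crypts, was 348 in female control 7 and 340.0 in male control 8, 275 and 256 in female OVA 2 and 12, and 236, 275, 252 and 273 in male OVA 1, 5, 8 and 13. Every OVA array lay below both controls, which were close to each other, with a difference of -0.39 ± 0.10 (SE) (limma adjusted p = 0.362). Stat5a, which relays signals of IL-2 and IL-7, was higher without overlap, by 0.40 ± 0.16 (SE), and the differences of Tox2 and Runx3 were 0.46 ± 0.20 (SE) and 0.45 ± 0.22 (SE). That of Tox2 was 0.18 without male control 8 and 0.70 without female control 7.

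Over probe sets in place of genes, most members again had a difference above 0 and 0 passed the test in limma. Of the 42 tested member probe sets 37 had a difference above 0 (all probe sets 54.5%), and 7 had an unadjusted p under 0.05, all on the higher side. These 7 were 16.7%, where 6.88% of the 22518 probe sets were called on that side and 4.33% on the other. The 2 controls were the lowest arrays for 5 of the 42 (11.9%), which belonged to Cd247, Cd28, Lef1, Ets1 and Satb1, and for 8.36% of all tested probe sets. By brightest probe set the shares were 7.41% of members and 7.99% of all genes, with Cd247 and Lef1 alone. Probe sets of the same gene are not independent. Of the 9 members with several tested probe sets, Bcl11b and Lcp2 had both signs.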

How the data were processed

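RNA of 8 Peyer's patch samples was read on single-colour Affymetrix arrays. The authors deposited linear intensity values per probe set, made with MAS5 per the submitters' processing notes; no other step is named in those notes. Of the 45101 probe sets 51.5% have exactly equal deposited intensity values on at least 2 arrays. The deposited intensities were turned into log2(intensity + 4.88), the pseudocount being the 25th percentile of all values. The 64 control probe sets were left out, and the 22518 probe sets above the median mean log2 value (intensity 11.9) were tested.

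Fits used limma 3.58.1 (lmFit, eBayes, two-sided) in R 4.3.3, with Benjamini-Hochberg adjustment over all tested probe sets and a threshold of 0.05. Treatment and sex entered 1 additive fit of all 8 arrays (5 residual degrees of freedom). Within-sex values and their difference came from a fit of 4 group means (4 residual degrees of freedom), so each single control borrows its spread from the groups of several arrays. The fits were tested on simulated data. Probe sets were named through the platform annotation, and a gene is given by its brightest tested probe set. Named genes are all members and, from each of 3 other lists, the up to 4 genes with the smallest unadjusted p for OVA against control; values are given in full at least for the 5 members with the smallest p and the 3 with the widest and the narrowest spread over OVA arrays. The labels number the samples without stating that they are separate animals, so p-values measure only the spread between these samples, which may be technical. The number of arrays limits the precision. Promoter windows and starts are RefSeq's (GRCm38.p6). Members and lists were chosen with earlier results of these data known. Alternatives covered the pseudocount, scaling, filter, variance model, array weights, covariate, probe set rule and arrays left out. Python 3.11.15 with pandas 2.3.3 and matplotlib 3.10.9 made the summaries and plots.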

Additional observations from a re-analysis of the deposited data

Results flagged for a closer look

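In 5 cases 1 array lay far from the others of its group, by Dixon's criterion at the 95% level, in 108 checks over 54 groups; chance alone gives about 1 in 20 groups. Male OVA 8 was the high array of the 4 male OVA arrays for 4 genes. Cd3e stood at 110.8 there, where the other 3 male arrays held 1 deposited value. Cd28 stood at 131.6, Cd6 at 46.8 and Lef1 at 84.48. Cd3g was lowest of the 6 OVA arrays in female OVA 2, at 141.1.

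For Bcl11b, both female OVA arrays lay below the female control and all 4 male OVA arrays above the male control. The difference in the OVA effect, males minus females, was 0.471 on the log2 scale, and it did not pass in limma (adjusted p = 0.633).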

How the results depend on the processing

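In no setting did a member pass: the lowest adjusted p in limma over 19 settings was 0.308. Of 27 members 19 kept the sign of the OVA difference throughout, and 8 did not. With array weights Cd3e was -0.091, Cd6 -0.066 and Prkcq -0.064. Without female OVA 12 and male OVA 8 together Cd3e was -0.11, Cd4 -0.002, Cd6 -0.097 and Prkcq -0.124, and the median spread over OVA arrays was 0.156. With 1 array left out at a time the OVA difference ran from -0.302 to 0.169 for Bcl11b, -0.187 to 0.212 for Cd3e, -0.177 to 0.6 for Cd3g, -0.07 to 0.203 for Cd6, -0.049 to 0.892 for Il7r, -0.052 to 0.167 for Prkcq and -0.645 to 0.196 for Txk.

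With 1 array left out, the female median ran from 0.026 to 0.489, probe sets called within males from 0 to 1, members above 0 in the difference between the sexes from 8 to 23, and members with all OVA arrays on 1 side of the controls from 2 to 12. The filter at the 75th percentile left 17 members; 16 had an OVA difference above 0, 13 in females, 17 in males and 9 in the difference between the sexes, 1 did not overlap, and 4 probe sets passed between females and males. The cause of these shifts beyond fewer features or arrays was not tested. Between females and males 5 genes passed both with probe sets averaged by gene and with the brightest probe set, so the lower number beside 12 probe sets is a change of unit. No paired analysis was possible because the groups compared share 1 replicate number, that of male control 8 and male OVA 8.

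A single control per sex limits every comparison, dim probe sets such as those of Txk and Gata3 lie near the filter, and equal deposited values on several arrays limit the spread that can be read.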
